A study of Ovis aries with 16 samples.

Results

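ABCB1, ABCG2 and CLDN1 were followed in the hypothalamus of fetal sheep, through every probe that carried one of these names or a known alias of it in the annotation of the array. They are 3 of the 961 genes named on the array, and the search returned 5 of the 15008 distinct probes, 2 for ABCB1, 1 for ABCG2 and 2 for CLDN1. Each of 16 arrays held RNA from the hypothalamus of a different late-gestation fetus with implanted catheters. The 4 groups had 4 fetuses each. Estradiol+BCO fetuses received estradiol at 250 ug per day for 5 days and then a brachiocephalic occlusion (BCO) of 10 min, and BCO fetuses received the occlusion alone. Estradiol fetuses received the same hormone dose and a sham occlusion, and control fetuses only the sham occlusion. The brachiocephalic artery carries blood to the head of the fetus, so that closing it for some minutes lowers flow to the brain. All fetuses were between 124 and 128 days of gestation (term is 147 days), all were bled through their catheters, and hypothalami were collected 1 h after occlusion or sham began.

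ABCB1 encodes P-glycoprotein and ABCG2 the breast cancer resistance protein, BCRP. Both are ATP-driven pumps in the membrane of brain capillary endothelial cells, where they return drugs, lipophilic compounds and steroid conjugates to the blood. CLDN1 encodes claudin-1, a membrane protein of the tight junctions that seal the space between neighboring cells. It is known from epithelia such as the epidermis, and in brain from the choroid plexus and meninges, while claudin-5 is the main claudin of the capillary endothelium.

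The 2 ABCB1 probes were copies of one stretch of the transcript set 20 bases apart, so that they shared 40 of their 60 bases and were not independent readings. They are shown whole because the gene is read only through this stretch, with the shared bases in capitals:
A_70_P030012: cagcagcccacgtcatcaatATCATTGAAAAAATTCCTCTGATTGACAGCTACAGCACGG
A_70_P030011: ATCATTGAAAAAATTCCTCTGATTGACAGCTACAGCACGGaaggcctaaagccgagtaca

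ABCG2 rested on a single probe and CLDN1 on 2 probes that again shared 40 of 60 bases. A stretch of 30 bases of each is shown, for CLDN1 from the shared part, which is in capitals:
ABCG2 A_70_P039641: cctctttaatttcaatgatttaccccccat
CLDN1 A_70_P068032 and A_70_P068031: GGAAGCCTTTGCCATTTGTATTACTGCTTC

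G and C made up 45% and 43.3% of the bases of the ABCB1 probes, 35% of the ABCG2 probe and 45% of each CLDN1 probe. None of the other 15003 probes held a run of 20 bases found in any of the 5 (0 matches), so that no other probe on the array was a near copy of them. In the file's annotation the ABCB1 probes began at bases 3025 and 3045 of the RefSeq transcript of the gene. The ABCG2 probe began at base 2127 of its RefSeq transcript, and the CLDN1 probes began at bases 766 and 786 of an expressed sequence tag. Whether the ABCG2 and CLDN1 probes lie in coding sequence or in a UTR, and the genome build behind them, are not given in the sources used here.

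Levels are log2 of the processed signal after each array's 75th percentile was subtracted, a point that lay between 2021 and 2904 signal units. Levels of different probes are not comparable, since each probe binds with its own strength. The 16 arrays lay on 2 slides, each holding 2 arrays of every group, and a test of slide called 858 of 12937 tested probes (6.63%). None of the 5 probes differed between the slides by limma (slide 2 minus slide 1 between -0.24 and 0.28, adjusted p of 0.324 to 0.789). As a check of the tissue, 13 of 20 listed hypothalamic neuropeptide genes had a tested probe. Their mean level was -2.28 to -0.50 in estradiol+BCO, -3.48 to -2.29 in BCO, -2.08 to 0.27 in estradiol and -0.92 to -0.31 in control arrays. For BCO against control 12 of the 13 were lower with 0 called (10 at an unadjusted p under 0.05, median -1.70). Over all tested probes 6217 of 12937 were lower, with a median of 0.0079, and 928 had an unadjusted limma p under 0.05 (7.17%). For estradiol+BCO against BCO 11 of the 13 genes were higher and 2 lower, 0 called (median 1.23). For estradiol+BCO against estradiol 5 were higher and 8 lower, 0 called (median -0.098). For estradiol against control 4 were higher and 9 lower, 0 called (median -0.31). In estradiol arrays the level was -0.50 and 0.27 on slide 1, and -1.34 and -2.08 on slide 2. The neuropeptide level thus moved with the BCO group, and in estradiol arrays with the slide. Its part in the values of ABCB1, ABCG2, CLDN1 and the other genes named below was not tested.

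Across the groups the ABCB1, ABCG2 and CLDN1 transcripts did not change past the threshold in any comparison. The threshold was a Benjamini-Hochberg adjusted p under 0.05 over all 12937 probes tested by limma. For BCO against control 0 of the 5 probes passed, beside 0% of all tested probes (928 at an unadjusted p under 0.05, 7.17%). For estradiol+BCO against estradiol 0 of 5 passed, beside 0.00773% of all probes, which is 1 probe (1000 unadjusted, 7.73%). For estradiol+BCO against BCO 0 of 5 passed, beside 0% (1222 unadjusted, 9.45%), and for estradiol against control 0 of 5, beside 0% (424 unadjusted, 3.28%). Averaged over estradiol, BCO gave 0 of 5, beside 0% (983 unadjusted, 7.6%). Averaged over BCO, estradiol gave 0 of 5, beside 0% (722 unadjusted, 5.58%). The interaction, which asks whether BCO acted differently with and without estradiol, gave 0 of 5, beside 0.00773%, again 1 probe (933 unadjusted, 7.21%). ABCG2 and 1 CLDN1 probe, A_70_P068032, had unadjusted p-values under 0.05 for estradiol+BCO against estradiol and also in the averaged BCO comparison. The same CLDN1 probe had one for estradiol+BCO against BCO.

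**Figure D1:**
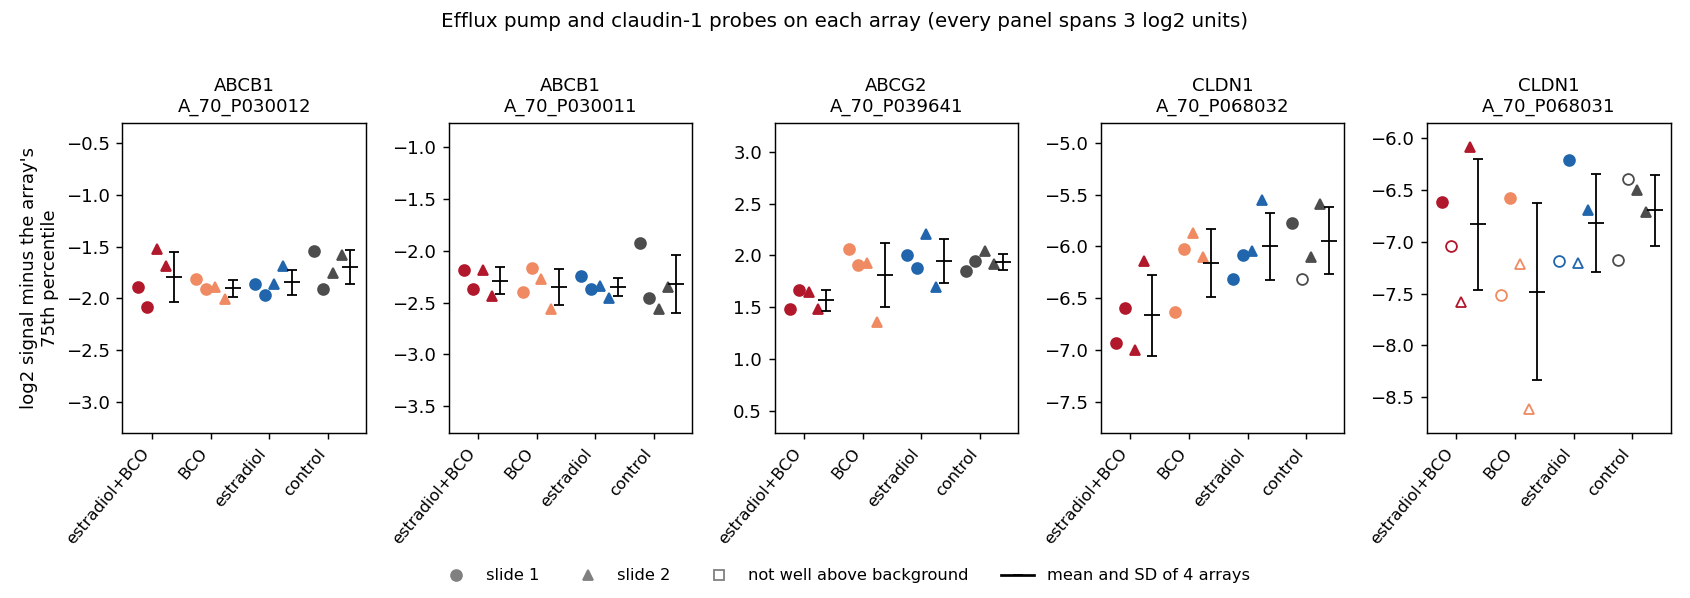
Level of each of the 5 probes on every array, in log2 units relative to the array's 75th percentile, with 1 panel for each probe. Circles are slide 1, triangles slide 2, open symbols arrays where the probe was not well above background, and bars the mean and SD of 4 arrays. The 4 estradiol+BCO arrays of ABCG2, at 1.48 to 1.66, sit below all estradiol and all control arrays, while the ABCB1 groups lie over one another.

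ABCB1 was well above background on all 16 arrays by both probes, and all 4 groups overlapped with either probe. With probe A_70_P030012 the levels were -1.89, -2.08, -1.53 and -1.69 in estradiol+BCO fetuses and -1.81, -1.91, -1.89 and -2.005 in BCO fetuses. In estradiol fetuses they were -1.86, -1.97, -1.86 and -1.69, and in control fetuses -1.54, -1.91, -1.75 and -1.58. The highest and the lowest of the 16 values both came from the estradiol+BCO group, and every pair of groups overlapped. The whole span was 0.55 log2 units, and the spread within groups (residual SD 0.163) was smaller than the median over all tested probes of 0.246. Group means were -1.79 ± 0.24 in estradiol+BCO, -1.90 ± 0.079 in BCO, -1.85 ± 0.12 in estradiol and -1.70 ± 0.17 in control (SD, n = 4 each). In the order control, estradiol+BCO, estradiol, BCO no neighbors were separated by more than 0.099, less than the SD of at least 1 group of each pair.

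The largest ABCB1 difference was that of BCO against control with this probe, a log2 fold change of -0.21 ± 0.12 (SE, 95% interval -0.47 to 0.055, limma adjusted p = 0.791). It was -0.14 on slide 1 and -0.28 on slide 2. Estradiol+BCO against estradiol gave 0.050 ± 0.12 (interval -0.21 to 0.31), estradiol+BCO against BCO 0.11 ± 0.12 (-0.15 to 0.37) and estradiol against control -0.15 ± 0.12 (-0.41 to 0.11). As folds, these 4 intervals together ran from 0.723 to 1.29. Each is a separate 95% interval for the signal of this probe, and how that signal scales with ABCB1 mRNA was not tested.

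With the second ABCB1 probe, A_70_P030011, the levels were -2.18, -2.37, -2.18 and -2.43 in estradiol+BCO fetuses and -2.40, -2.16, -2.27 and -2.56 in BCO fetuses. Estradiol fetuses read -2.25, -2.37, -2.34 and -2.45, and control fetuses -1.92, -2.46, -2.56 and -2.35. The control group held the highest value of all, the lowest 2 values came from 1 BCO and 1 control array, and all groups overlapped. Means were -2.29 ± 0.13 in estradiol+BCO, -2.35 ± 0.17 in BCO, -2.35 ± 0.086 in estradiol and -2.32 ± 0.28 in control (SD, n = 4 each). BCO against control gave -0.028 ± 0.13, estradiol+BCO against estradiol 0.062 ± 0.13, estradiol+BCO against BCO 0.059 ± 0.13 and estradiol against control -0.031 ± 0.13 (SE). The fold intervals of these 4 comparisons ran from 0.804 to 1.27. Estradiol averaged over BCO gave -0.020 ± 0.086 with A_70_P030012 and 0.014 ± 0.094 with A_70_P030011 (SE, limma adjusted p of 0.983 and 0.992). The interaction was 0.26 ± 0.17 for A_70_P030012 and 0.089 ± 0.19 for A_70_P030011 (SE, limma adjusted p of 0.840 and 0.9754).

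The largest difference of a pump was that of ABCG2 between estradiol+BCO and estradiol fetuses. Its levels were 1.48, 1.66, 1.65 and 1.48 in estradiol+BCO fetuses and 2.06, 1.91, 1.92 and 1.35 in BCO fetuses. They were 2.003, 1.87, 2.21 and 1.70 in estradiol fetuses and 1.85, 1.95, 2.04 and 1.92 in control fetuses. All 4 estradiol+BCO arrays lay below all 4 estradiol arrays and below all 4 control arrays, and no other pair of groups was separated. Over all tested probes, 2.88% were separated in this direction for estradiol+BCO against estradiol and 2.06% for estradiol+BCO against control. Means were 1.57 ± 0.10 in estradiol+BCO, 1.81 ± 0.31 in BCO, 1.95 ± 0.22 in estradiol and 1.94 ± 0.078 in control (SD, n = 4 each). From the highest mean, estradiol, through control and BCO to estradiol+BCO, each group overlapped its neighbor in the order.

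Estradiol+BCO against estradiol gave a log2 fold change of -0.38 ± 0.14 for ABCG2 (SE, 95% interval -0.69 to -0.072), a fold of 0.769. Its unadjusted limma p was 0.0191 and its adjusted p = 0.566, so the difference did not pass. It was -0.37 on slide 1 and -0.39 on slide 2, and between -0.46 and -0.29 when any 1 array was left out. The same occlusion without estradiol, BCO against control, gave -0.13 ± 0.14 (interval -0.43 to 0.18, limma adjusted p = 0.948), with 0.087 on slide 1 and -0.34 on slide 2. The difference between these responses, the interaction, was -0.25 ± 0.20 (interval -0.69 to 0.18, limma adjusted p = 0.879), with -0.45 on slide 1 and -0.051 on slide 2, so the response to BCO was not shown to differ with estradiol. Averaged over estradiol, BCO gave -0.25 ± 0.10 (interval -0.47 to -0.036, limma adjusted p = 0.586), with -0.14 on slide 1 and -0.37 on slide 2. Estradiol+BCO against BCO gave -0.24 ± 0.14 (adjusted p = 0.613 by limma), with -0.41 on slide 1 and -0.075 on slide 2. Estradiol against control gave 0.0085 ± 0.14 (interval -0.30 to 0.32), and estradiol averaged over BCO gave -0.12 ± 0.10 (interval -0.33 to 0.099, limma adjusted p = 0.892).

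A single BCO fetus set much of the ABCG2 value after BCO alone. BCO replicate 4, at 1.35, was the lowest of all 16 arrays, while the other BCO arrays lay at 1.91 to 2.06. Without it BCO against control was 0.025 in place of -0.13, and estradiol+BCO against BCO was -0.40 in place of -0.24 (limma adjusted p = 0.302), while the interaction was -0.40 in place of -0.25. The same array had the lowest mean level of the 13 neuropeptide genes, -3.48 where the other BCO arrays had -2.77 to -2.29. The part of this in the ABCG2 value was not tested.

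**Figure D2:**
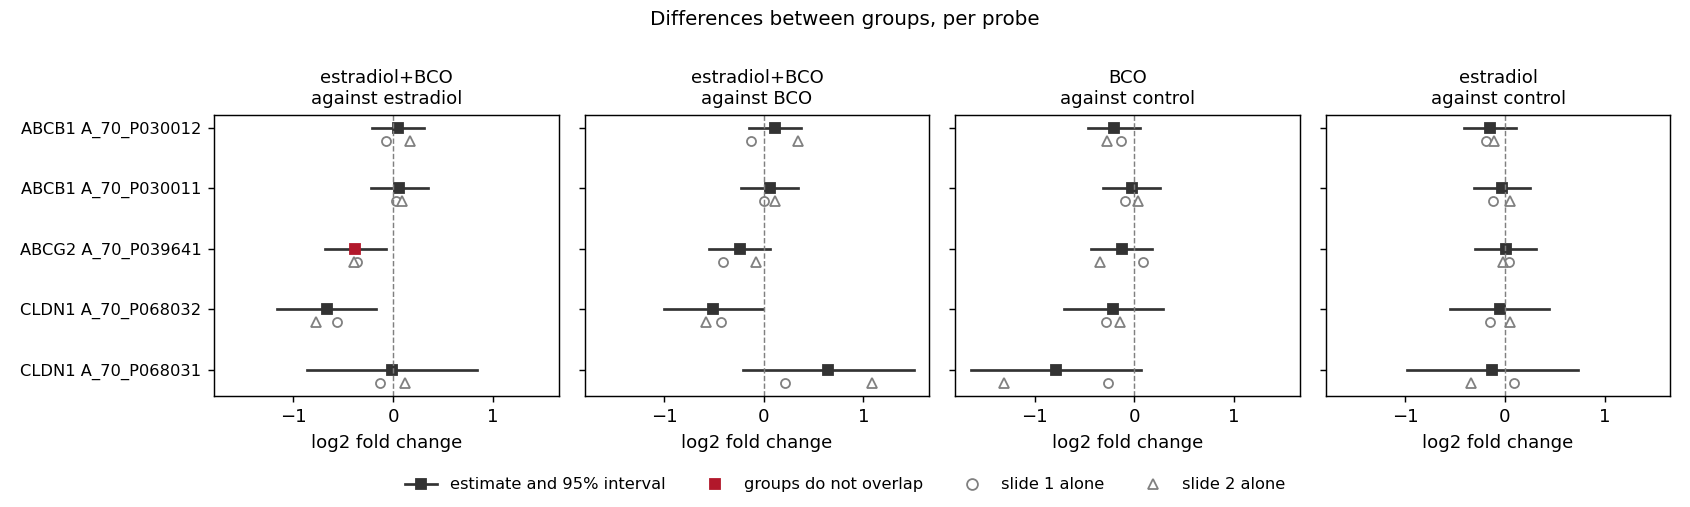
Log2 fold changes of the 5 probes in the 4 comparisons between groups (squares, with 95% intervals from limma), with the difference within slide 1 (circles) and within slide 2 (triangles) below each. ABCG2 in estradiol+BCO against estradiol, at -0.38, is the only square in color, for groups that do not overlap; the 2 CLDN1 probes lie apart there, at -0.67 and -0.010.

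CLDN1 was read near the floor of the array. Probe A_70_P068032 was well above background on 15 of 16 arrays, all but control replicate 2, and A_70_P068031 on 7 of 16, of which 2 were estradiol+BCO, 1 BCO, 2 estradiol and 2 control arrays. Before background correction the spots of A_70_P068032 measured 92.8 to 122 units, with 52 to 62 units in their local background, and after the software's correction 18.4 to 52.8 units remained. The scanner software put the error of a single reading at a median of 15.8% for A_70_P068032 and 22.7% for A_70_P068031, with a highest value of 61.3% for A_70_P068031 on BCO replicate 4. The ABCB1 and ABCG2 probes had a median error of 10.0%.

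**Figure D3:**
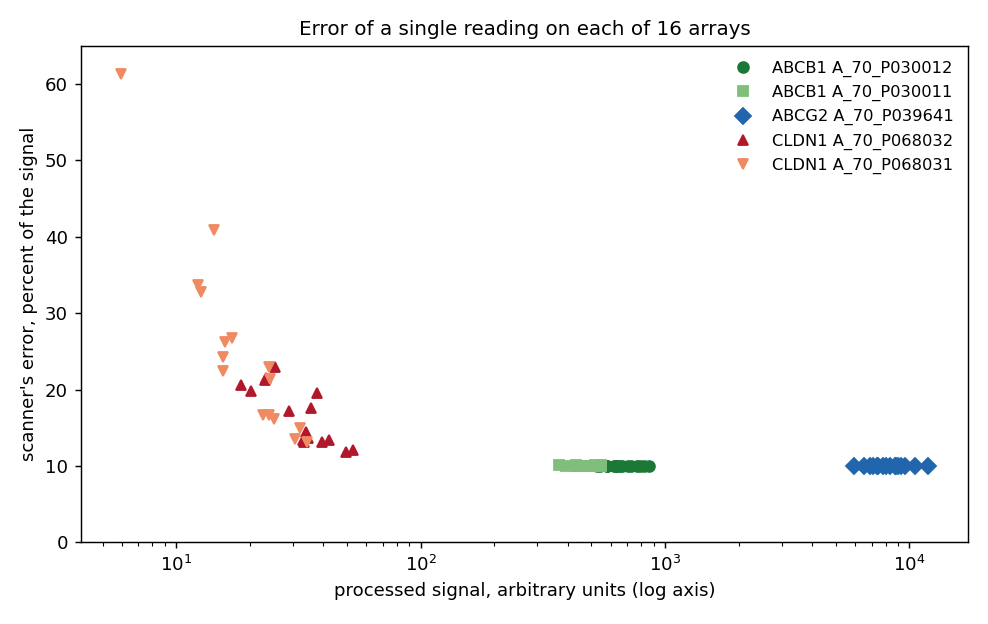
Error that the scanner software assigned to each reading, in percent of the processed signal, against that signal in arbitrary units on a log axis, for the 5 probes on 16 arrays. ABCB1 and ABCG2 readings stay near 10%, while CLDN1 readings lie between 11.8% and 61.3%. Signals of different probes are not comparable as amounts of RNA.

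With A_70_P068032 the CLDN1 levels were -6.93, -6.59, -7.00 and -6.14 in estradiol+BCO fetuses and -6.63, -6.02, -5.87 and -6.11 in BCO fetuses. Estradiol fetuses read -6.32, -6.08, -6.04 and -5.55, and control fetuses -5.78, -6.31, -6.10 and -5.59. Of the 4 estradiol+BCO arrays 3 lay below every estradiol and control array, and replicate 4, at -6.14, lay among them. Means were -6.67 ± 0.39 in estradiol+BCO, -6.16 ± 0.33 in BCO, -6.00 ± 0.32 in estradiol and -5.95 ± 0.32 in control (SD, n = 4 each). The means of BCO, estradiol and control differed by less than any of their SDs.

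Estradiol+BCO against estradiol gave -0.67 ± 0.23 with this probe (SE, 95% interval -1.16 to -0.17, limma adjusted p = 0.499), a fold of 0.630, with -0.56 on slide 1 and -0.77 on slide 2. Averaged over estradiol, BCO gave -0.44 ± 0.16 (limma adjusted p = 0.557), and estradiol+BCO against BCO gave -0.51 ± 0.23 (limma adjusted p = 0.517). BCO against control gave -0.21 ± 0.23, and estradiol against control -0.054 ± 0.23. The interaction was -0.45 ± 0.33 (interval -1.15 to 0.25, limma adjusted p = 0.861). With normexp background correction, which starts from the spot and its local background, the value for estradiol+BCO against estradiol was -0.34 (limma adjusted p = 0.661). BCO averaged over estradiol was then -0.19 and estradiol+BCO against BCO -0.15, and the unadjusted limma p-values of these 3 comparisons were 0.0703, 0.137 and 0.391. After normexp correction estradiol replicate 3 stood at -3.70 with this probe, and the other estradiol arrays at -4.59 to -4.57. Estradiol+BCO arrays stood at -4.87 to -4.55. The part of estradiol replicate 3 in the normexp values was not tested.

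The overlapping CLDN1 probe did not show the same order of groups. A_70_P068031 read -6.61, -7.04, -7.58 and -6.08 in estradiol+BCO fetuses and -7.52, -6.57, -7.21 and -8.61 in BCO fetuses. It read -7.18, -6.20, -7.20 and -6.69 in estradiol fetuses and -7.17, -6.39, -6.50 and -6.72 in control fetuses. Estradiol+BCO fetuses held the highest value of all and BCO replicate 4 the lowest, and every pair of groups overlapped. Means were -6.83 ± 0.64 in estradiol+BCO, -7.48 ± 0.85 in BCO, -6.82 ± 0.47 in estradiol and -6.69 ± 0.34 in control (SD, n = 4 each). Here estradiol+BCO against estradiol gave -0.010 ± 0.40 (SE, 95% interval -0.87 to 0.84), where the other probe gave -0.67. Estradiol+BCO against BCO gave 0.65 ± 0.40, where the other probe gave -0.51. The interaction was 0.78 ± 0.56 (interval -0.43 to 1.98, limma adjusted p = 0.863), where the other probe gave -0.45. BCO against control was the largest value of this probe, -0.79 ± 0.40 (interval -1.64 to 0.070, limma adjusted p = 0.725), with -0.26 on slide 1 and -1.31 on slide 2. Estradiol averaged over BCO gave 0.26 ± 0.28 with A_70_P068031 and -0.28 ± 0.16 with A_70_P068032 (SE, limma adjusted p of 0.912 and 0.880). Without BCO replicate 4 the BCO difference of A_70_P068031 was -0.41, and with normexp correction -0.10 (limma adjusted p = 0.9999).

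The probes of a gene were set against each other over the 16 arrays. For ABCB1 the pair correlated with Pearson's r = 0.35 (adjusted p = 0.358 over the 2 pairs, permutation test) and Spearman's rho = 0.20 (adjusted p = 0.556, permutation test). Without the 2 arrays farthest from the median of the brighter probe, A_70_P030012, r was -0.13. Leaving these out also narrows the range of that probe, so this value alone does not show what the pooled r rested on. Within slides the ABCB1 pair gave 0.74 on slide 1 and 0.47 on slide 2, both above the pooled value, and the probes had opposite slide differences of 0.12 and -0.13. For CLDN1 the pair gave r = 0.17 (adjusted p = 0.523, permutation test) and rho = 0.16 (adjusted p = 0.556, permutation test), with 0.15 without the farthest 2 arrays and 0.15 and 0.32 within slides. With normexp correction both pairs passed, at r = 0.66 for ABCB1 and r = 0.75 for CLDN1 (adjusted p = 0.00678 each, permutation test). On that scale estradiol replicate 3 was the highest of 16 arrays for both CLDN1 probes, at -3.70 and -3.87, with the next array at -4.32 and -4.46.

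**Figure D4:**
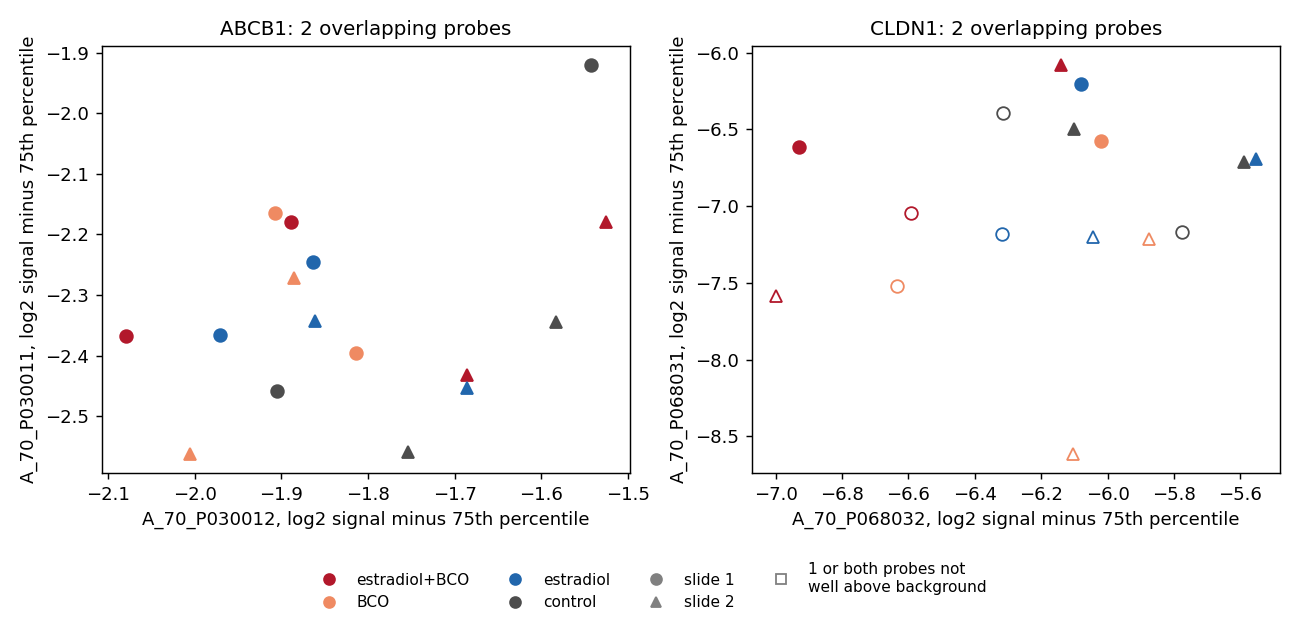
The 2 overlapping probes of ABCB1 (left) and of CLDN1 (right) on each of 16 arrays, both axes in log2 units relative to the array's 75th percentile, with color for the group, circles for slide 1 and triangles for slide 2. Open symbols mark arrays where 1 or both probes were not well above background. The ABCB1 pair correlates with r = 0.35 and the CLDN1 pair with r = 0.17; all 16 arrays of the ABCB1 panel are filled and 7 of the CLDN1 panel.

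The levels of the 3 genes, each by its brighter probe, were not found to go together over fetuses. ABCB1 and ABCG2 correlated with r = 0.046 and rho = 0.074 (adjusted p of 0.864 and 0.785 over the 3 pairs, permutation tests). ABCB1 and CLDN1 gave r = 0.20 and rho = 0.18 (adjusted p of 0.682 and 0.785, permutation tests), and ABCG2 and CLDN1 r = 0.25 and rho = 0.16 (adjusted p of 0.682 and 0.785, permutation tests). Leaving out the 2 arrays farthest from the median of the first gene gave r = 0.16, 0.52 and 0.39 for these 3 pairs. Within slide 1 the same pairs gave 0.25, 0.48 and 0.47, and within slide 2 0.028, -0.24 and 0.24.

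ABCB1 and CLDN1 were next set against other genes by the brighter probe only. The r of that probe with the other probe of its gene was 0.35 for ABCB1 and 0.17 for CLDN1. The named genes most like each of the 3 over the 16 arrays were the 5 with the highest r of 851 genes compared. They are a description, since the top of many comparisons is high by choice, and all genes share the array's scaling. ABCB1 was most like RPS20, a ribosomal protein (r = 0.80), the glutaredoxins GLRX2 (0.79) and GLRX (0.71), the copper chaperone ATOX1 (0.64) and the thioredoxin-like TXNDC17 (0.63). The 99th percentile of r over all genes was 0.57 for ABCB1. ABCG2 was most like CDKN2AIPNL (r = 0.79), the T cell receptor subunit CD3E (0.76), the oxytocin receptor OXTR (0.75), the glutamate dehydrogenase GLUD1 (0.75) and YEATS4 (0.71), beside a 99th percentile of 0.66. Within slides the r of OXTR with ABCG2 was 0.38 and 0.94. CLDN1 was most like the receptor kinase ERBB2 (r = 0.69), the growth factor FGF2 (0.68), the glucuronosyltransferase UGT1A9 (0.67), the cytochrome c oxidase subunit COX5A (0.67) and the glutamate receptor subunit GRIA4 (0.65), beside a 99th percentile of 0.61. With group means subtracted, r was 0.64 to 0.83 for the 5 genes of ABCB1. It was 0.49 to 0.90 for those of ABCG2 and 0.38 to 0.80 for those of CLDN1. Within slides the 3 ranges were 0.39 to 0.83, 0.38 to 0.94 and 0.32 to 0.91.

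Other genes of the barrier gave no calls in any comparison either, and few of them had a named probe. Of 36 other ABC transporter genes listed, 1 was tested, the chloride channel CFTR, well above background on 8 arrays, which differed by 0.27 ± 0.17 (SE) for BCO averaged over estradiol. Of 30 junction genes 3 were tested, all higher for that contrast with 0 called (median 0.17, beside -0.0040 over all probes). They were the claudin CLDN3 (0.17 ± 0.11), the junctional adhesion molecule F11R (0.18 ± 0.23) and occludin, OCLN (0.11 ± 0.21). In estradiol+BCO against estradiol, where ABCG2 and CLDN1 probe A_70_P068032 had their lowest unadjusted p-values, CLDN3 stood at 0.18 ± 0.16, OCLN at 0.025 ± 0.29 and F11R at 0.23 ± 0.32.

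Of 27 listed carriers of the brain barriers 7 were tested, and 3 were higher and 4 lower for BCO averaged over estradiol, 0 of them called (median -0.035). The peptide carrier SLC15A1 averaged -6.48 ± 0.30 in estradiol+BCO, -6.55 ± 0.75 in BCO, -7.93 ± 0.87 in estradiol and -7.55 ± 0.67 in control (SD, n = 4 each), a contrast of 1.22 ± 0.32 (SE, limma adjusted p = 0.457). That probe was well above background on 9 arrays. The prostaglandin carrier SLCO2A1 averaged -2.06 ± 0.14, -2.22 ± 0.21, -2.54 ± 0.38 and -2.48 ± 0.092 in the same 4 groups, a contrast of 0.37 ± 0.11 (SE, limma adjusted p = 0.503). The leptin receptor LEPR (-0.76 ± 0.49) and the caveolar protein CAV1 (-0.15 ± 0.11) stood on the lower side.

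Of 24 listed regulators of efflux pumps 11 were tested, with 6 higher and 5 lower for BCO averaged over estradiol and 0 called (median 0.0046). The estrogen receptor ESR1 averaged -0.79 ± 0.60 in estradiol+BCO, -1.72 ± 0.81 in BCO, -0.35 ± 0.62 in estradiol and -0.18 ± 0.38 in control (SD, n = 4 each), a contrast of -0.99 ± 0.29 (SE, limma adjusted p = 0.478). The hypoxia-inducible subunit EPAS1 stood at 0.40 ± 0.12 and the nuclear receptor PPARG at -0.15 ± 0.097. Of 14 matrix proteases and inhibitors 8 were tested, and for BCO averaged over estradiol 3 were higher and 5 lower with 0 called (median -0.060). For estradiol averaged over BCO 8 were lower with 0 called (median -0.11), beside 6910 of 12937 probes that were lower and a median of -0.010 over all probes. For the estradiol contrast the gelatinase MMP2 stood at -0.22 ± 0.10 and the inhibitor TIMP3 at -0.16 ± 0.074, while the inhibitor TIMP2 stood at 0.14 ± 0.082 for BCO averaged over estradiol. TIMP3 averaged -1.35 ± 0.21 in estradiol+BCO, -0.98 ± 0.087 in BCO, -0.98 ± 0.12 in estradiol and -1.03 ± 0.044 in control (SD, n = 4 each). Its estradiol mean thus did not lie below control. MMP2 averaged -3.74 ± 0.20, -3.40 ± 0.27, -3.80 ± 0.13 and -3.69 ± 0.19 in the same groups.

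In whole hypothalamus, fewer cells of a type and less RNA per cell cannot be told apart, so levels of the cells known to carry these proteins are given beside ABCG2 and CLDN1. Of 15 endothelial markers 6 were tested, and for estradiol+BCO against estradiol 4 were higher and 2 lower, 0 called (median 0.20). Their summed level, in multiples of the 75th percentile, was 1.06 to 1.49 in estradiol+BCO, 1.36 to 1.72 in BCO, 1.04 to 1.61 in estradiol and 1.08 to 1.53 in control arrays. A sum is carried by the brightest probe, so the mean log2 level is given too: -3.46 to -3.12 in estradiol+BCO, -3.35 to -2.84 in BCO, -3.67 to -3.23 in estradiol and -3.83 to -3.43 in control arrays. The endothelial receptor KDR stood at -0.32 ± 0.14 and the endothelial nitric oxide synthase NOS3 at 0.34 ± 0.15 (SE). Over all 12937 tested probes 6260 were higher and 6677 lower for estradiol+BCO against estradiol (median -0.0082). Of 10 markers of fibroblasts and meninges 6 were tested, and for the same contrast 5 were lower and 1 higher, 0 called (median -0.47). Their summed level was 73.1 to 100.1 in estradiol+BCO, 58.8 to 85.4 in BCO, 74.8 to 93.8 in estradiol and 72.7 to 86.5 in control arrays. Their mean log2 level, in which each gene counts equally, averaged -0.33 in estradiol+BCO (-0.76 to 0.30), -0.070 in BCO (-0.42 to 0.37), 0.22 in estradiol (-0.14 to 0.60) and 0.032 in control arrays (-0.54 to 0.35). Of 10 markers of choroid plexus and ependyma 1 was tested, transthyretin (TTR), whose level was -2.51 to 1.08 in estradiol+BCO, -1.72 to 3.85 in BCO, -1.09 to 2.07 in estradiol and 0.56 to 3.70 in control arrays. The part of these cells in the ABCG2 and CLDN1 values was not tested.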

How the data were processed

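The authors labeled total RNA of 16 hypothalami with Cy3 for a single-color Agilent ovine array, per the labels' protocols. The deposited scanner files hold a processed signal per spot, an intensity in arbitrary units after background subtraction and spatial detrending, per the file headers, along with quality flags. The authors' own value table, also deposited, is on a log2 scale, and here it equalled log2 of that signal less the array's median over its features. Probes were named from the annotation in the files and a table of RefSeq sheep genes, used for names only, and 13449 of 15008 probes remained unnamed. Of the 5 probes reported, 3 were named by transcript accession and the CLDN1 probes by symbol.

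Here log2 processed signals were reduced by each array's 75th percentile, after spots marked as outliers were set to missing and the 50 probes with 5 spots were averaged. Probes well above background on at least 4 of 16 arrays were tested, which kept 12937 and left out 2071, and all 5 member probes passed. The filter did not use the groups. The 4 groups were fitted together with limma 3.58.1 in R 4.3.3 (lmFit and eBayes, 2-sided), with Benjamini-Hochberg adjustment over all tested probes in each of 7 comparisons, and the fit was tested on simulated data. Correlations used 100000 permutations. The number of arrays limits the precision. Between arrays of a group, log2 differences had SDs of 0.47 to 0.77, so no array was a copy of another in its group.

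The genes reported are every probe of the 3 members, the 5 genes most correlated with each, and, of each barrier list, up to 4 genes with the lowest p on either side for BCO averaged over estradiol or estradiol averaged over BCO. One gene that this rule chose is not reported here. Markers and OCLN were named after their values were seen. Members, lists and tests were chosen with earlier results of these data known. The alternatives were normexp background correction (offset 50), quantile normalization, median centring, the value table, other filters on dim probes, outlier spots kept, trended and robust moderation, slide or replicate number as a block, each slide alone, the groups compared alone, and leaving out each array in turn.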

Additional observations from a re-analysis of the deposited data

Results flagged for a closer look

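Among the 5 member probes and the named barrier genes, 76 combinations of a probe and a group of 4 arrays were examined for 1 array far from the other 3, by Dixon's test at its 95% critical value, which chance passes in about 1 of 20 groups. None of the ABCB1, ABCG2 and CLDN1 groups passed it, and 3 combinations of other genes did. The peptide carrier SLC15A1 stood at -5.43 in BCO replicate 4, with the other BCO arrays at -6.96 to -6.90. The prostaglandin carrier SLCO2A1 stood at -1.85 in estradiol+BCO replicate 3, with the others at -2.14 to -2.10. MMP2 stood at -3.97 in control replicate 3, with the others at -3.62 to -3.56.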

How the results depend on the processing

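No ABCB1, ABCG2 or CLDN1 probe passed the threshold in any of 560 refits of its comparisons without 1 array or 426 refits under another setting (35 comparisons of a probe), and the lowest limma adjusted p was 0.302. The ABCG2 difference for estradiol+BCO against estradiol stayed negative throughout. Values that changed direction numbered 32 without 1 array and 21 under other settings. Their cause was not tested.

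With normexp correction, A_70_P030011 stood at -0.013 for BCO averaged over estradiol and 0.030 for estradiol against control, and its slide difference at 0.019. A_70_P068032 stood at 0.14 and A_70_P068031 at 0.20 for estradiol against control, and the A_70_P068031 interaction at -0.12 in place of 0.78. In these normexp values estradiol replicate 3 read -3.70 with A_70_P068032 and -3.87 with A_70_P068031. The other estradiol arrays read -4.59 to -4.57 and -4.82 to -4.64. For estradiol+BCO against estradiol, A_70_P068031 stood at 0.012 with median centring, 0.092 with quantile normalization, 0.0047 with the value table and 0.11 on slide 2. With quantile normalization ABCG2 stood at -0.0051 for estradiol against control, and the correlation of ABCB1 with ABCG2 at -0.014. With group means subtracted the correlation of ABCG2 with CLDN1 was -0.38. Normexp brought the pairs of probes past the threshold, at r = 0.66 for ABCB1 and r = 0.75 for CLDN1.

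On slide 1 alone, A_70_P030011 stood at -0.030 for BCO averaged and -0.054 for estradiol averaged, A_70_P030012 at -0.12 for estradiol+BCO against BCO and -0.068 for estradiol+BCO against estradiol, ABCG2 at 0.087 for BCO against control, and A_70_P068031 at 0.088 for estradiol against control. On slide 2 alone, A_70_P030011 stood at 0.036 for BCO against control and 0.054 for estradiol against control, A_70_P030012 at 0.12 for estradiol averaged, and ABCG2 at -0.024 and A_70_P068032 at 0.048 for estradiol against control.

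Leaving out 1 array, A_70_P030011 ranged from -0.11 to 0.11 (BCO against control), -0.023 to 0.084 (BCO averaged), -0.11 to 0.10 (estradiol against control), -0.026 to 0.081 (estradiol averaged), -0.044 to 0.17 (interaction) and -0.013 to 0.12 (estradiol+BCO against BCO). A_70_P030012 ranged from -0.065 to 0.027 (estradiol averaged) and -0.040 to 0.15 (estradiol+BCO against estradiol). ABCG2 ranged from -0.21 to 0.025 (BCO against control) and -0.079 to 0.091 (estradiol against control), A_70_P068031 from -0.26 to 0.24 (estradiol+BCO against estradiol) and A_70_P068032 from -0.20 to 0.065 (estradiol against control).

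Counts over all probes, 0 or 1 as reported, were also low elsewhere. For BCO against control 3 passed with the groups alone, 14 on slide 2 and 0 to 6 without 1 array, with 6 when BCO replicate 2 was left out. For estradiol+BCO against BCO 13 passed on slide 2 and 0 to 5 without 1 array (5 without BCO replicate 1), and for estradiol against control 1 on slide 2. For estradiol averaged 1 passed on slide 1 and 0 to 1 without 1 array. For estradiol+BCO against estradiol 0 passed with the groups alone, median centring, the value table or either slide, and 0 to 1 without 1 array. For the interaction 0 passed with median centring, no filter, quantile normalization, the value table or either slide, 3 with slide as a block and 0 to 3 without 1 array.

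Replicate numbers are shared between groups. Of 24 pairs of arrays with the same number, 20 had deviations correlated above 0.1 (-0.028 to 0.27). Their median of 0.12 lay below the 0.14 of other pairs on the same slide, and 3 of 16 arrays correlated best with their own number. With the replicate number as a block 0 probes passed for estradiol+BCO against estradiol in place of 1, and 3 for the interaction in place of 1. For ABCG2 in estradiol+BCO against estradiol the block gave -0.38 (limma adjusted p = 0.413), and no member probe passed. Differences of the CLDN1 probes changed with the background correction, the slide and the arrays kept.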
